A study of Homo sapiens with 6 samples.

Results

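The genes described here are 9 members of the EGFR family system, out of 63241 listed genes: the ligand genes EREG, AREG, HBEGF, TGFA and BTC, the receptor genes EGFR, ERBB2 and ERBB3, and ERRFI1, which encodes an inhibitor of the receptors. They were taken by name, and the set was built around EREG because EREG had higher values in siSHMT2 in these same libraries. All member differences between siSHMT2 and siNC are therefore given as a description, without a p-value. The libraries came from wild-type HT-1376 cells, a human bladder cancer line. In 3 of them the cells had received siSHMT2, a single small interfering RNA (siRNA) against SHMT2, and in the other 3 the non-targeting siRNA siNC, and all cells were collected 24 h after transfection. The comparison asks which RNAs differ once SHMT2, the mitochondrial enzyme that converts serine to glycine and supplies one-carbon units, is silenced.

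The EGFR ligands are made as membrane-anchored precursors and are released at the cell surface by metalloproteases. A released ligand binds EGFR on the same or a neighbouring cell, EGFR pairs with another receptor of the family, and the signal passes through adaptors and RAS to the ERK kinases and through PI3K to AKT. Several ligand genes, the ERRFI1 gene and the dual-specificity phosphatase genes are themselves induced by this signal, so that the system contains both amplifying and damping loops. In the urothelium, EGFR and its ligands are known for their roles in epithelial growth and repair.

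The totals of counted reads were 817748, 660559 and 890574 in siNC replicates 1 to 3 and 533689, 818859 and 815061 in siSHMT2 replicates 1 to 3. These totals are far below the number of reads that the study states for each sample, and whether the table holds a part of the reads could not be settled. The floors and limits here are those of the deposited counts: a gene with 3 counts in a library stood at 3.37 to 5.62 CPM, the count scaled to the library total. Of 10 epithelial markers, 9 had counts in every library, KRT8 alone had 13773, and the summed level was 4994 to 5560 CPM. The exception was UPK2, a uroplakin gene of differentiated urothelium, with 1 count in siSHMT2 replicate 2 and 0 in the other 5 libraries. Of the other cell types, 3 of 6 fibroblast markers had counts (summed 10.99 to 27.0 CPM, COL1A2 highest with 62 counts, PDGFRB, DCN and LUM at 0), as did 2 of 3 endothelial markers (0 to 4.89 CPM, CDH5 highest with 9, VWF at 0), and the leukocyte markers PTPRC and CD3E were at 0. SHMT2 had 28, 15 and 20 counts in siNC and 9, 2 and 5 in siSHMT2, so the targeted gene was lower in each siSHMT2 library than in any siNC library (log2 fold change -1.78, SE 0.48). siSHMT2 replicate 1, the shallowest library, kept the highest SHMT2 level of its group at 16.9 CPM, against 2.44 and 6.14 CPM in replicates 2 and 3. GAPDH, the reference gene of the study, had 838, 618 and 978 counts in siNC and 532, 802 and 723 in siSHMT2.

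EREG encodes epiregulin and AREG encodes amphiregulin, and these were the most abundant of the 5 ligand genes. EREG lies on chromosome 4 at 74365145 to 74388749 and AREG at 74445136 to 74455005 (GRCh38, both on the plus strand), 56387 bases apart. The 100 bases directly before the RefSeq start site of each gene (GRCh38.p14, plus strand, 5′ to 3′) are shown because the pair differ in what they carry there. Capitals mark a TATAAA match in both genes and a TGACGTCA match, the full cAMP response element, in AREG.
EREG, chr4:74365045-74365144: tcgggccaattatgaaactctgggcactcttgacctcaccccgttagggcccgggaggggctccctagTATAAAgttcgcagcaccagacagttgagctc
AREG, chr4:74445036-74445135: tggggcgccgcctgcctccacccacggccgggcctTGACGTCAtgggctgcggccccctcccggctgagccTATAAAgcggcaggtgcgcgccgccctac

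The motifs, which were picked after the ligand promoters had been read, were searched on both strands in the 250 bases before the start site, and not after it, of all 35116 RefSeq promoters. TATAAA began 32 bases before the start of EREG, 29 before AREG and 29 before EPGN, the gene of the ligand epigen in the same cluster, and 10.7% of all promoters held it. TGACGTCA began 65 bases before the start of AREG, had no match in the EREG window, and was held by 1.65% of all promoters. TGAGTCA, an AP-1 motif, was held by 4.2% of all promoters and had no match before EREG, AREG or EPGN, and none of the motifs matched before HBEGF, BTC or the 2 start sites of TGFA. A match describes the letters of the window and is not evidence of a bound factor.

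EREG was higher in siSHMT2 than in siNC, and the libraries of the groups did not overlap. EREG had 70, 42 and 80 counts in siNC and 57, 78 and 148 counts in siSHMT2. Per length and depth this was 18.6, 13.8 and 19.5 FPKM in siNC against 23.1, 20.6 and 39.4 FPKM in siSHMT2. The lowest siSHMT2 library was close to the highest siNC library, and siSHMT2 replicate 3 stood well above all the others. The means were 17.3 ± 3.05 FPKM (SD, n = 3) in siNC and 27.7 ± 10.2 FPKM (SD, n = 3) in siSHMT2, and the fitted log2 fold change was 0.69 with an SE of 0.20, a 1.61-fold difference. Without siSHMT2 replicate 3 the log2 fold change was 0.34 (SE 0.21), and without siSHMT2 replicate 2 it was 0.86 (SE 0.22). Counting error alone gave 95% Clopper-Pearson intervals of 71.2 to 111.8 CPM in siNC replicate 3 and 75.3 to 118.9 CPM in siSHMT2 replicate 2, which overlap widely, whereas siSHMT2 replicate 3 reached 153.5 to 213.3 CPM. Nothing says that reads were counted by molecular identifiers, so these intervals cover counting error only.

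The calls across all genes give the background for this value. After Benjamini-Hochberg adjustment of edgeR's quasi-likelihood p-values, 0 of the 7207 tested genes (0%) had an adjusted p under 0.05, EREG included, and the smallest adjusted p was 0.932. At an unadjusted p under 0.05, 277 genes were counted with this test, 117 with DESeq2, and 315 and 309 with limma on log2(FPKM + 1) and log2(FPKM + 0.1). Together with a fold change over 1.5, the unadjusted threshold called 193 genes (2.68%), of which 98 (1.36%) were higher in siSHMT2. Of the 7 tested members EREG alone was called by this rule, and 0 of them passed the adjusted one. Because the set was chosen by this contrast, nothing is read from that count. Groups that did not overlap in log2 CPM were found for 663 tested genes (9.20%), with siSHMT2 above siNC in 335 (4.65%), so a separation like that of EREG was frequent in these libraries.

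**Figure D1:**
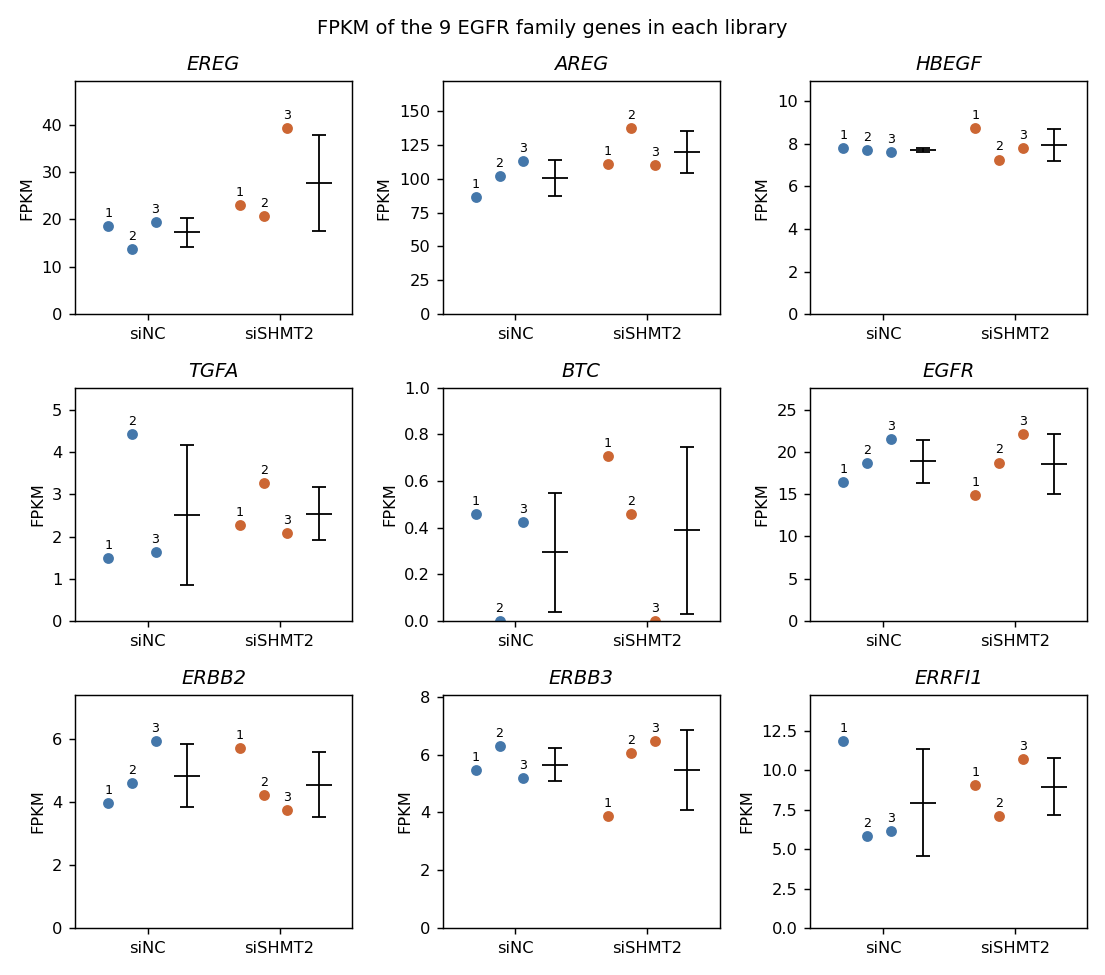
FPKM of the 9 EGFR family genes (vertical axes, each from 0) in the 3 siNC and 3 siSHMT2 libraries, with the replicate number above each point and the group mean ± SD (n = 3) as a bar beside the points. For EREG all siSHMT2 points, 20.6 to 39.4 FPKM, lie above the siNC points, 13.8 to 19.5 FPKM, and in the other 8 panels the groups overlap.

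The higher EREG level was not accompanied by a separation of the groups in any other ligand. AREG had 86.2, 101.8 and 112.8 FPKM in siNC and 110.8, 137.6 and 110.4 FPKM in siSHMT2. All siSHMT2 libraries lay above 2 of the 3 siNC libraries, and siNC replicate 3 lay above siSHMT2 replicates 1 and 3. The AREG means were 100.3 ± 13.4 and 119.6 ± 15.6 FPKM (SD, n = 3 each), with a log2 fold change of 0.26 (SE 0.17). The AREG and EREG values followed the same libraries only in part. In siNC, replicate 3 was the highest for both genes. In siSHMT2, replicate 3 had the highest EREG, but its AREG was nearly equal to that of replicate 1 and below that of replicate 2. Over the 6 libraries Pearson's r of log2 CPM between the 2 genes was 0.158 and Spearman's rho was 0.543.

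HBEGF encodes heparin-binding EGF-like growth factor and was nearly level across the libraries. It had 7.78, 7.70 and 7.62 FPKM in siNC and 8.74, 7.25 and 7.80 FPKM in siSHMT2, from 11 to 16 counts per library. The siSHMT2 libraries lay on both sides of the siNC libraries, and the log2 fold change was 0.04 (SE 0.39).

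TGFA, the gene of transforming growth factor alpha, had too few counts to pass the filter with all libraries. It had 5, 12 and 6 counts in siNC and 5, 11 and 7 counts in siSHMT2, or 2.51 ± 1.65 and 2.54 ± 0.632 FPKM (SD, n = 3 each). Replicate 2 was the highest in both groups. BTC, the gene of betacellulin, had 1, 0 and 1 counts in siNC and 1, 1 and 0 counts in siSHMT2, and passed the filter in no fit but the one with no filter on low counts. Besides EREG, which was chosen for its higher values, AREG and HBEGF were thus the ligand genes tested. Both had positive log2 fold changes, and that of HBEGF turned to -0.023 without siSHMT2 replicate 1.

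The ligand genes were also summed within each library. The summed level was 217.7, 225.6 and 254.9 CPM in siNC and 275.4, 296.8 and 344.8 CPM in siSHMT2, with means of 232.7 ± 19.6 and 305.7 ± 35.5 CPM (SD, n = 3 each). Every siSHMT2 library was above every siNC library. Without EREG the sum was 132.1, 162.0 and 165.1 CPM in siNC and 168.6, 201.5 and 163.2 CPM in siSHMT2, and the groups overlapped, since siSHMT2 replicate 3 lay below siNC replicate 3.

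Measures of the composition of the ligand pool were added after the counts had been seen. EREG made up 39.3%, 28.2% and 35.2% of the ligand counts in siNC and 38.8%, 32.1% and 52.7% in siSHMT2. The groups overlapped, and siSHMT2 replicate 3 was the highest, with a 95% Clopper-Pearson interval of 46.7% to 58.6% that touched those of siNC replicate 1 (32.1% to 46.9%) and siSHMT2 replicate 1 (30.9% to 47.2%). The ratio of EREG counts to AREG counts was 0.805, 0.506 and 0.645 in siNC and 0.781, 0.561 and 1.33 in siSHMT2. In siSHMT2 replicate 3 alone EREG exceeded AREG in counts, and in the other 5 libraries AREG exceeded EREG. EREG and AREG together held 83.9% to 92.2% of the ligand counts in every library.

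**Figure D2:**
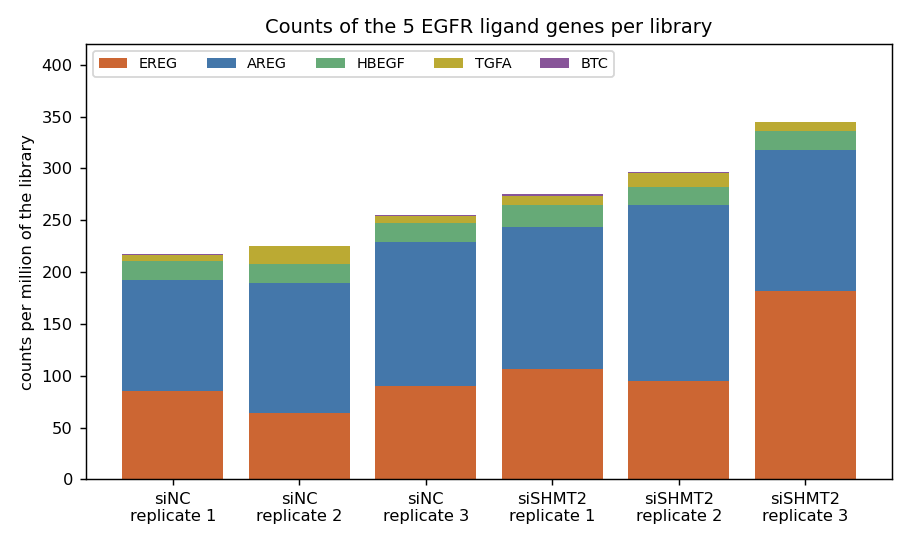
Summed level of the 5 ligand genes in each library (vertical axis, CPM), stacked by gene. The siSHMT2 bars, 275.4 to 344.8 CPM, are higher than the siNC bars, 217.7 to 254.9 CPM, and the EREG segment is tallest in siSHMT2 replicate 3.

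The receptor genes had similar levels in both groups. EGFR, the receptor for all 5 ligands, had 16.4, 18.7 and 21.5 FPKM in siNC and 14.9, 18.7 and 22.1 FPKM in siSHMT2. The groups overlapped almost fully, with means of 18.9 ± 2.57 and 18.6 ± 3.56 FPKM (SD, n = 3 each) and a log2 fold change of -0.0049 (SE 0.16). EGFR had 79 to 190 counts per library, the highest of the receptors.

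ERBB2 binds no ligand of its own and acts as a partner of the other receptors. It had 3.97, 4.61 and 5.92 FPKM in siNC and 5.70, 4.21 and 3.73 FPKM in siSHMT2, with a log2 fold change of -0.12 (SE 0.35). ERBB3 has little kinase activity and signals mainly through PI3K when paired. It had 5.47, 6.28 and 5.20 FPKM in siNC and 3.89, 6.04 and 6.46 FPKM in siSHMT2, with siSHMT2 replicate 1 the lowest of all 6 libraries. Its log2 fold change was -0.0035 (SE 0.30). For EGFR, ERBB2 and ERBB3 the sign of the difference turned when single libraries were left out, and each value stayed within 1 SE of its estimate from all libraries.

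ERBB4, the remaining receptor gene of the family, had 0 counts in all 6 libraries, which allows up to 0.661 CPM over the 6 libraries together. The ligands NRG2 and NRG3 also had 0 counts in every library, NRG1 had 1 count in siNC and EGF had 1 count in siSHMT2.

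ERRFI1 encodes MIG6, a protein that binds the kinase domain of EGFR and blocks it. It had 11.9, 5.87 and 6.16 FPKM in siNC and 9.08, 7.10 and 10.7 FPKM in siSHMT2. The siSHMT2 libraries lay above siNC replicates 2 and 3 and below siNC replicate 1. The log2 fold change was 0.16 (SE 0.34), and it was 0.56 (SE 0.40) without siNC replicate 1 and -0.026 (SE 0.37) without siNC replicate 3, so that its size rested on single siNC libraries, which had 12 to 30 counts. Across the 7 tested members, 4, EREG among them, were higher and 3 lower in siSHMT2 with a median log2 fold change of 0.035, while 3588 of all tested genes were higher and 3619 lower.

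**Figure D3:**
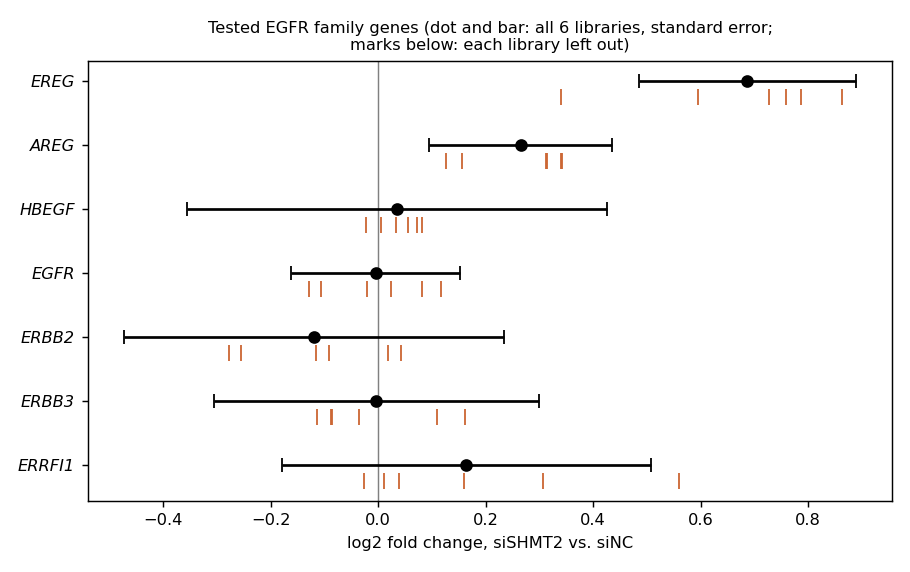
Log2 fold changes of the 7 tested EGFR family genes, siSHMT2 vs. siNC (horizontal axis), with the SE as a bar and, as marks below, the value after each library was left out. EREG is at 0.69 with marks from 0.34 to 0.86, AREG is at 0.26 with marks from 0.13 to 0.34, and the bars of the other 5 genes include 0.

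**Figure D4:**
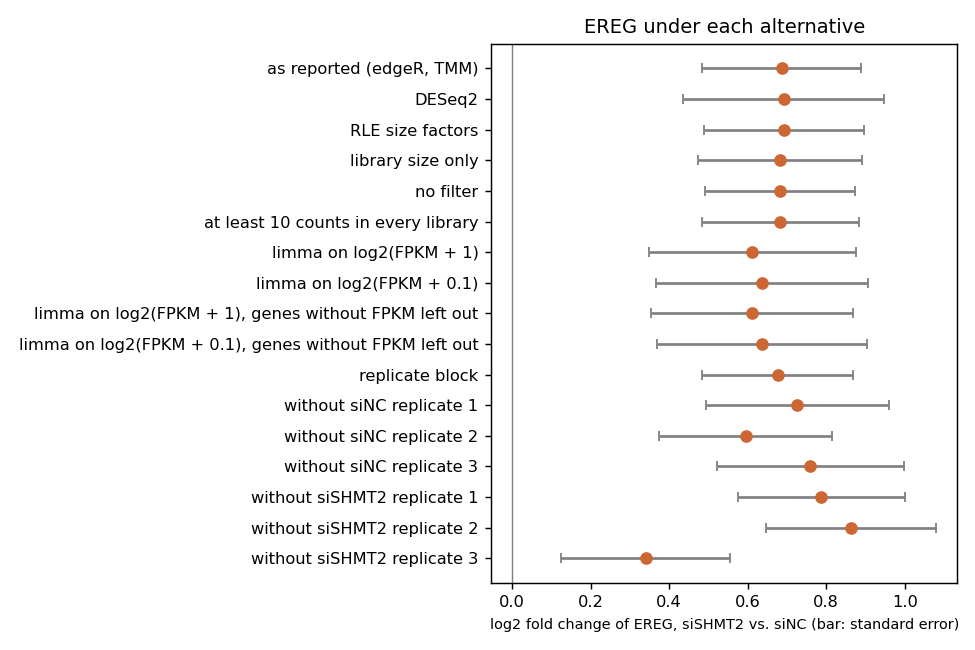
Log2 fold change of EREG (horizontal axis, with its SE) in the fit as reported and under 16 alternatives (rows). The 10 alternatives with all libraries lie between 0.61 and 0.69, and the value without siSHMT2 replicate 3 is the lowest at 0.34.

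The levels of the 9 genes were ordered by mean FPKM over the 6 libraries. AREG was the highest at 109.9 FPKM, followed by EREG at 22.5, EGFR at 18.7, ERRFI1 at 8.46, HBEGF at 7.82, ERBB3 at 5.56, ERBB2 at 4.69, TGFA at 2.53 and BTC at 0.342 FPKM. EREG was chosen for its values in these libraries, so its place is a description. No p-value is given for its pairs with AREG and EGFR, which enter only the adjustment below. AREG was 4.89 times as high as EREG and stood above it in 6 of 6 libraries. By the lengths that the authors listed, EREG exceeded EGFR in 3 of 3 siSHMT2 libraries but in 1 of 3 siNC libraries. In siNC the mean of EGFR, 18.9 FPKM, was above that of EREG, 17.3 FPKM, an order that depends on these lengths, as given below.

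Among the other genes the order held in 6 of 6 libraries for EGFR over ERRFI1, HBEGF over ERBB3, ERBB2 over TGFA and TGFA over BTC. For these 4 pairs the two-sided exact sign-flip permutation test gave p = 0.03125, the smallest that 6 libraries allow, and 0.05 after Benjamini-Hochberg adjustment over all 8 neighbouring pairs, the EREG pairs included. Adjusted over the 6 pairs without EREG, a choice made after the values were seen, it was 0.0469, so the side of the 0.05 threshold depends on which pairs are counted.

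The other 2 pairs of neighbours did not differ beyond their spread. ERRFI1 exceeded HBEGF in 3 of 6 (exact permutation p = 0.688, adjusted 0.688) and ERBB3 exceeded ERBB2 in 4 of 6 (exact permutation p = 0.313, adjusted 0.393). FPKM divides by a single length per gene, so an order between genes depends on the length that the authors listed. With the merged exon length of GENCODE release 44 in its place, 4 rather than 5 of the 8 neighbouring pairs kept their order in all 6 libraries. The pair lost was ERBB2 over TGFA, which then held in 4 of 6 libraries. The order of EREG and EGFR in siNC also changed with this length. EREG then had 15.0, 11.1 and 15.7 FPKM in siNC against 10.2, 11.6 and 13.4 FPKM for EGFR, so EREG was higher in siNC replicates 1 and 3. Over all libraries EREG then exceeded EGFR in 5 of 6.

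The remaining genes of the EGFR pathway were taken from lists by role and comprised 75 genes, of which 47 were tested and 3 had 0 counts in all libraries. Of the 47, 2 (4.26%) were called at an unadjusted p under 0.05 with a fold change over 1.5, beside 2.68% of all tested genes, and 0 had an adjusted p under 0.05. Both were lower in siSHMT2. The signs leaned the same way: 38 of the 47 (80.9%) were lower in siSHMT2 against 50.2% of all tested genes, and their median log2 fold change was -0.11 against -0.0010. The lean was smaller when a library was left out, at 56.9% to 73.5% lower, with the lowest share without siSHMT2 replicate 1, and it was 65.3% of 72 genes with no filter on low counts. In 4 of the 47 (8.51%) the groups did not overlap in log2 CPM, all with siSHMT2 below, beside 9.20% of all tested genes. Genes of a pathway share libraries and are not independent, and no test was made of the list.

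The signal relay genes, which carry the signal from the receptors to ERK and AKT, held both calls, and 3 of 21 tested were higher and 18 lower. MAPK3, the gene of the kinase ERK1, had 10.0, 14.2 and 13.6 FPKM in siNC and 7.30, 6.66 and 4.78 FPKM in siSHMT2. Each siSHMT2 library was below each siNC library, with a log2 fold change of -1.02 (SE 0.36, edgeR adjusted p = 0.999). MAPK3 was called under all 16 alternatives, with log2 fold changes from -1.17 to -0.83. PLCG1, the gene of a phospholipase C recruited by the active receptor, had 4.13, 3.69 and 4.25 FPKM in siNC and 2.79, 1.65 and 1.99 FPKM in siSHMT2. Its groups did not overlap either, with a log2 fold change of -0.94 (SE 0.36, edgeR adjusted p = 0.999), and it was not called without siSHMT2 replicate 2. SHC1, an adaptor gene among the most abundant of the list, stood at 31.1 ± 4.76 FPKM (SD, n = 6).

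The ERK-induced genes hold transcripts known to follow ERK activity, and 2 of 14 tested were higher and 12 lower. Their most abundant members were EPHA2, a receptor tyrosine kinase gene, at 22.7 ± 2.84 FPKM and MCL1, an anti-apoptotic gene, at 21.6 ± 5.62 FPKM (SD, n = 6 each). MCL1 passed the unadjusted threshold (edgeR adjusted p = 0.999) with a log2 fold change of -0.52 (SE 0.19), under the 1.5-fold threshold. It was called without siSHMT2 replicate 3, where its log2 fold change was -0.68. None of the 14 was called with all libraries.

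Of the 12 genes that attenuate the receptors, 6 were tested, 1 higher and 5 lower. The most abundant were STUB1, a ubiquitin ligase gene, at 186.6 ± 15.5 FPKM and PTPN1, a tyrosine phosphatase gene, at 15.5 ± 2.17 FPKM (SD, n = 6 each). Of the 7 genes for ligand shedding 4 were tested, 2 higher and 2 lower. ADAM17, the main sheddase of EREG, AREG, HBEGF and TGFA, stood at 16.1 ± 2.196 FPKM and ADAM15 at 10.2 ± 1.33 FPKM (SD, n = 6 each). None of these attenuation or shedding genes was called with all libraries.

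Of the 6 ligand genes outside the members, EPGN and NRG4 were tested. EPGN had 39, 21 and 47 counts in siNC and 18, 25 and 38 counts in siSHMT2, with means of 16.4 ± 4.08 and 13.8 ± 3.18 FPKM (SD, n = 3 each) and a log2 fold change of -0.25 (SE 0.28). NRG4, whose product binds ERBB4, had 52.2 ± 9.33 FPKM in siNC and 54.1 ± 6.34 FPKM in siSHMT2 (SD, n = 3 each), with a log2 fold change of 0.07 (SE 0.16). Neither was called, and the groups overlapped in both.

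**Figure D5:**
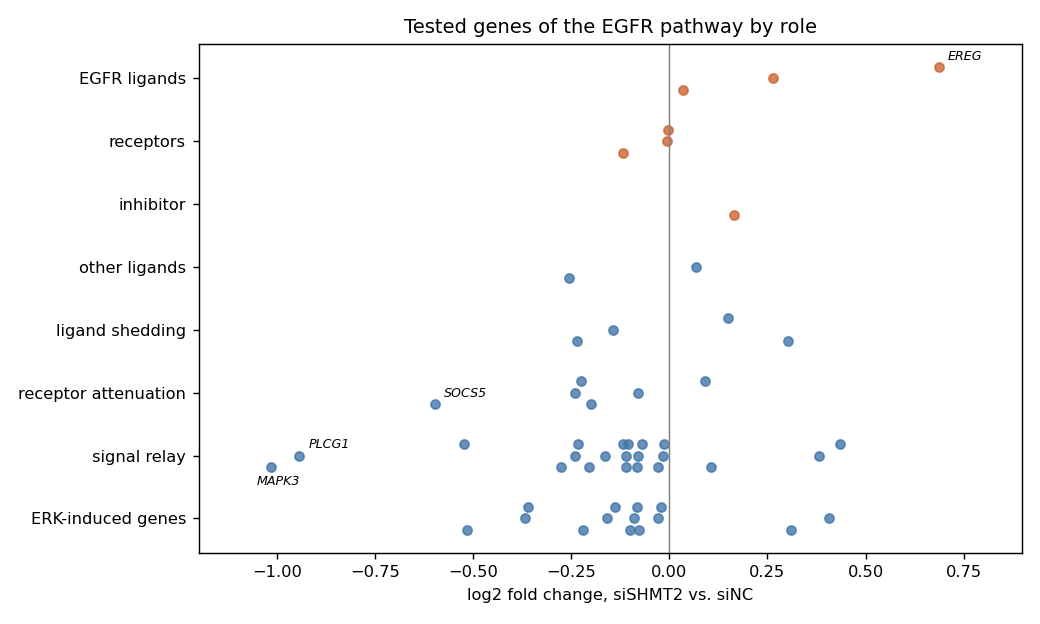
Log2 fold changes, siSHMT2 vs. siNC (horizontal axis), of the 7 tested EGFR family genes (orange) and the 47 other tested pathway genes (blue), 1 point per gene, in rows by role, with names on genes past a 1.5-fold difference. EREG is the highest at 0.69, MAPK3 the lowest at -1.02, and 18 of the 21 signal relay genes lie below 0. SOCS5, at -0.60 (SE 0.40, edgeR adjusted p = 0.999), was not called with all libraries.

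EREG lies in a cluster of ligand genes, so its neighbours were listed within 500 kb on either side. Of 25 annotated genes, EREG included, 8 had a count and 3 were tested, namely EPGN, EREG and AREG. EPGN lies 48356 bases and AREG 56387 bases from EREG, on the same strand, and their log2 fold changes were -0.25 and 0.26 beside 0.69 for EREG. BTC lies 356010 bases away on the minus strand and had 4 counts in all. MTHFD2L, a gene of mitochondrial one-carbon metabolism 62046 bases from EREG, had 23 counts, with 1, 5 and 4 in siNC and 2, 8 and 3 in siSHMT2. CXCL1, a chemokine gene, had 1 count, and the lncRNA genes ENSG00000287037 and ENSG00000269559 had 9 and 8 counts. CXCL2, CXCL3 and CXCL5 had 0 counts in every library.

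The library preparation kept strand, but the strand setting of the counting is not given in the sources used here, so the exons on the opposite strand were listed for the family members and the main genes beside them. EREG, AREG, HBEGF, TGFA, BTC, EPGN and MAPK3 share no exonic base with a gene on the opposite strand, and ERBB3 shares none either. EGFR shares 1.17% of its exonic bases with EGFR-AS1, which had 81 counts against 854 for EGFR. ERBB2 shares 6.93% with MIEN1 and PGAP3, which had 68 and 11 counts against 104 for ERBB2. ERRFI1 shares 3.71% with the lncRNA gene ENSG00000284747, which had 12 counts against 119. PLCG1 shares 6.36% with genes that had 209 counts against its 104. Of the abundant pathway genes, EPHA2 and ADAM15 share none with the opposite strand. The shares were 0.691% for MCL1, 3.41% for PTPN1, 7.51% for SHC1, 11.7% for ADAM17, 38.2% for NRG4 and 42.5% for STUB1. The opposite genes had more counts than the gene itself for MCL1 (508 against 459), SHC1 (1043 against 493), ADAM17 (4067 against 487) and STUB1 (2894 against 1578), and fewer for PTPN1 (56 against 283) and NRG4 (73 against 817). GAPDH shares 17.6% with a lncRNA gene that had 7896 counts against 4491, and SHMT2 shares 8.38% with genes that had 4 counts against 79. Some genes also share exonic bases with a gene on the same strand. MCL1 shares 5.27% with ADAMTSL4-AS1, which had 7502 counts against 459, and SHC1 shares 7.72% with PYGO2 (60 against 493). ADAM15 shares 4.65% with DCST1 (9 against 209), PLCG1 1.15% with RPL23AP81 (6 against 104) and ERBB3 0.265% with a gene at 0 counts. The part of reads from overlapping genes on either strand in these values was not tested.

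The pattern of EREG over the 6 libraries was compared with the 6701 tested genes that had a mean count of at least 10, by Pearson's r of log2 CPM. The 5 most similar genes were HMCES (r = 0.980, Spearman's rho 0.943), ENSG00000242588 (0.973, 0.943), GNB3 (0.971, 0.943), GATA2 (0.970, 0.771) and YWHAE (0.967, 0.886). All 5 values are for the same 6 libraries, which share depth and preparation, and 41 genes (0.612%) had an r over 0.9. YWHAE, the gene of a 14-3-3 protein, had 102.5, 79.7 and 101.8 FPKM in siNC and 105.9, 105.3 and 132.1 FPKM in siSHMT2. It was lowest in siNC replicate 2 and highest in siSHMT2 replicate 3, as was EREG. The 5 genes were picked by this r, so their likeness to EREG follows from the choice. How often unrelated genes reach such an r over 6 libraries was not tested. HMCES and YWHAE share no exonic base with a gene on the opposite strand, GATA2 shares 1.59% (147 opposite counts against 241), GNB3 16.0% (57 against 113) and ENSG00000242588 17.7% (715 against 141). No family member was among these 5 genes. By Pearson's r ERRFI1 came nearest of the members at 0.535 (rank 895, rho 0.314), with EGFR at 0.251 (rho 0.143), AREG at 0.158 (rank 2514, rho 0.543) and ERBB2 at -0.434 (rho -0.257). By Spearman's rho AREG came nearest, so the order of the members depends on the measure.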

How the data were processed

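Strand-specific libraries of poly(A)-selected RNA from HT-1376 cells, 3 siNC and 3 siSHMT2, were sequenced by the authors. Per the labels and the study's methods, reads were checked with FastQC 0.11.9, trimmed with fastp 0.23.4 and aligned to GRCh38 with HISAT2 2.2.1; per the labels DESeq2 1.42.1 was also used. How reads were counted (program, strand, annotation release) is not given in the sources used here. The authors deposited whole-number counts per gene without normalization, and FPKM values, which the deposited gene lengths and library totals return with a largest relative difference of 2.3e-14. Genes without a listed length (91) have an FPKM of 0.

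Symbols and positions were taken from GENCODE 44, where 62666 of the 63241 genes were found; 20836 had a count. Counts were tested in R 4.3.3 with edgeR 4.0.16 (TMM, filterByExpr, quasi-likelihood test, two-sided, no block), with Benjamini-Hochberg adjustment over 7207 genes. Genes were counted at an adjusted p under 0.05, with no fold threshold, and at an unadjusted p under 0.05 with the study's fold change over 1.5. The SE is the log2 fold change divided by the square root of F. Log2 CPM used a prior count of 2, and FPKM ratios between genes a pseudocount of 0.1, which was chosen later than the test. The fit was tested on simulated data.

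Tested genes had a median of 25 counts in a library, which limits precision. Replicates differed by 1.74 to 2.33 times counting noise (chi-square per degree of freedom), so no library was counted as a duplicate. The study calls the replicates biological and does not say how they were separated, and the p-values measure the spread between these libraries.

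The alternatives were DESeq2 1.42.0, RLE factors, library size only, no filter, a minimum of 10 counts per library, log2 FPKM in limma 3.58.1, the replicate block and each library left out. The limma fits kept genes without FPKM and warned of zero variances; a version without these genes was added after the results had been seen.

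Named genes were the 9 members, SHMT2 and GAPDH, the other family ligands and receptors, the called and the 2 most abundant genes of each pathway list, genes near or opposite the members, and the 5 genes most like EREG. SOCS5, CXCL2, CXCL3, CXCL5 and, for its values by setting, MCL1 were named after their values were seen. Values of some genes that this rule names are not reported here. The members and lists were chosen with earlier results of these data known.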

Additional observations from a re-analysis of the deposited data

How the results depend on the processing

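EREG was higher in siSHMT2 under all 16 alternatives. It was chosen for its higher values and its groups did not overlap, so this sign was set in advance. The alternatives show only how the size of the difference varied. The log2 fold change of EREG was 0.61 to 0.69 in the 10 fits with all libraries. It was 0.34 to 0.86 when a library was left out, and the lowest value was that without siSHMT2 replicate 3. Members called at the unadjusted threshold numbered 1 in all fits with 6 libraries and 0 to 1 with a library left out, 0 being without siSHMT2 replicate 3. The left-out range of AREG was 0.13 to 0.34 and that of HBEGF -0.023 to 0.081, and ERRFI1 was 0.56 without siNC replicate 1. The sign of HBEGF, EGFR, ERBB2, ERBB3 and ERRFI1 turned in at least 1 fit.

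Genes called over the whole table at the unadjusted threshold numbered 193 as reported, 80 with DESeq2, 607 with no filter, 114 with at least 10 counts in every library, and 232 to 309 with a library left out, where the filter also passed more genes. With limma the number was 188 and 209 at pseudocounts of 1 and 0.1, and 210 and 220 in the version without genes that lack an FPKM, which was added after the data were seen. Genes with an adjusted p under 0.05 numbered 0 in every fit with all libraries and 0 to 1 with a library left out, 1 being without siSHMT2 replicate 3. The pathway genes called numbered 2 with all libraries and 2 to 4 with a library left out. SOCS5 was called beside MAPK3 and PLCG1 without siNC replicate 2, and MCL1 beside them without siSHMT2 replicate 3. The 4 without siNC replicate 1 were MAPK3, PLCG1, SOS2 and DUSP4, and the 4 without siSHMT2 replicate 2 were MAPK3, SOS2, GAB1 and FOSL1. The neighbouring pairs ordered in all libraries numbered 4 to 5 with a library left out.

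With the replicate number as a block, EREG was 0.68, 187 genes were called and 0 had an adjusted p under 0.05. The smallest edgeR adjusted p was 0.0852 with the block and 0.932 without it. Deviations of same-numbered libraries correlated at -0.015, 0.048 and -0.012, and those of differently numbered libraries at -0.031 to 0.045. At a median of 25 counts per gene these correlations cannot decide whether the numbers pair the libraries, so a pairing remains unknown. Depth limits TGFA and BTC, which had too few counts to pass the filter with all libraries.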
